A study of Mus musculus with 24 samples.

Results

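Of 10 fibroblast and non-collagen matrix genes, 8, fibronectin foremost, were lower in mouse mammary glands at pregnancy day 18 than in virgin glands, tenascin-C was higher, and none was called between SOCS2 R96C knock-in and wild-type mice. The 10 genes were chosen by name: fibronectin (Fn1), decorin (Dcn), lumican (Lum), periostin (Postn), osteonectin (Sparc), fibrillin-1 (Fbn1), elastin (Eln), tenascin-C (Tnc), the PDGF receptor alpha (Pdgfra) and vimentin (Vim). Every non-control probe that the array files give one of these names was taken, which made 24 of 56605 probes. All 24 passed the filter on dim probes, which kept 35118 probes in all, and 18 of the 24 were well above background on every array. Dcn, Lum and Vim had 1 probe each, and the other 7 genes had several. For each gene the brightest probe on average stood for the gene, 1 of 22383 genes tested.

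The study put RNA of 24 female C57BL/6 mice on 1-colour Agilent 60K arrays, 1 array per mouse, to study how the R96C change in SOCS2, a suppressor of cytokine signalling, bears on the gland. The groups were 5 knock-in mice at pregnancy day 18, 5 wild-type mice at pregnancy day 18, 7 virgin knock-in mice of 8 weeks and 7 virgin wild-type mice of 8 weeks. Knock-in mice were homozygous for the R96C allele, and all cells of the animal carry it. The inguinal gland was taken whole apart from its lymph node, frozen and extracted. The labels name the molecule polyA RNA, and the labelling text names total RNA. The age of the pregnant mice is not in the labels, so pregnancy and age cannot be told apart. In whole glands, fewer cells of a type and less RNA per cell cannot be told apart either.

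The mammary stroma is built by fibroblasts embedded among fat cells, and fibroblasts are the main makers of most of these proteins. Fibronectin forms an adhesive meshwork that cells grip through integrins, decorin and lumican coat and space collagen fibrils, and fibrillin and elastin form the elastic fibres. Periostin, osteonectin and tenascin-C are matricellular proteins, which tune the contact between cells and matrix rather than bearing load. During pregnancy the ducts branch and milk-forming alveoli fill the fat pad, so the make-up of the gland changes along with its cells.

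All levels below are log2 processed signals minus the 75th percentile of the same array, so a level of 0 is that percentile and levels of different probes are not comparable. A gene was called where limma's adjusted p was under 0.05. The arrays of 2 mice stood apart: knock-in virgin mouse 376 had 57003 spots well above background and a negative-control median of 339, and knock-in day-18 mouse 184 had 43055 spots and 50.1. The other 22 arrays had 33374 to 39174 such spots and negative-control medians of 27.8 to 39.5. No non-control spot was saturated (0). For the stage labels, milk protein genes were looked at: 7 of 7 were called higher at day 18 in each genotype. Of all genes, 22.9% were called higher in knock-in and 20.9% in wild-type mice. Wap and Csn1s2b were each well above background on 4 of 7 knock-in and 5 of 7 wild-type virgin arrays. These 2 passed the filter through the day-18 groups alone, so their calls carry no weight. Luminal markers, 10 measured, had mean levels of 3.63 to 4.19 in knock-in and 3.48 to 3.95 in wild-type glands at day 18, against -3.63 to 2.18 in knock-in and 0.42 to 2.65 in wild-type virgin glands. The value of -3.63 was mouse 198 alone, and the next lowest knock-in virgin, mouse 376, was at 0.96.

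In both genotypes, 8 of the 10 genes were lower at day 18 than in virgins and 1, Tnc, was higher, and they were the same genes. Sparc did not pass. Of all genes tested, 20.3% were called lower and 22.9% higher in knock-in mice, and 20.9% lower and 20.9% higher in wild-type mice. The median log2 difference over the 10 genes was -1.49 in knock-in mice, where that of all genes was 0.05, and -1.53 in wild-type mice, where that of all genes was 0.01. In knock-in mice the day-18 and virgin levels did not overlap for 2 of 10 genes, beside 20.2% of all genes. Without mouse 376 that count was 9 of 10, beside 33.4% of all genes. In wild-type mice the levels of 9 of 10 genes did not overlap, beside 39.2% of all genes.

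**Figure D1:**
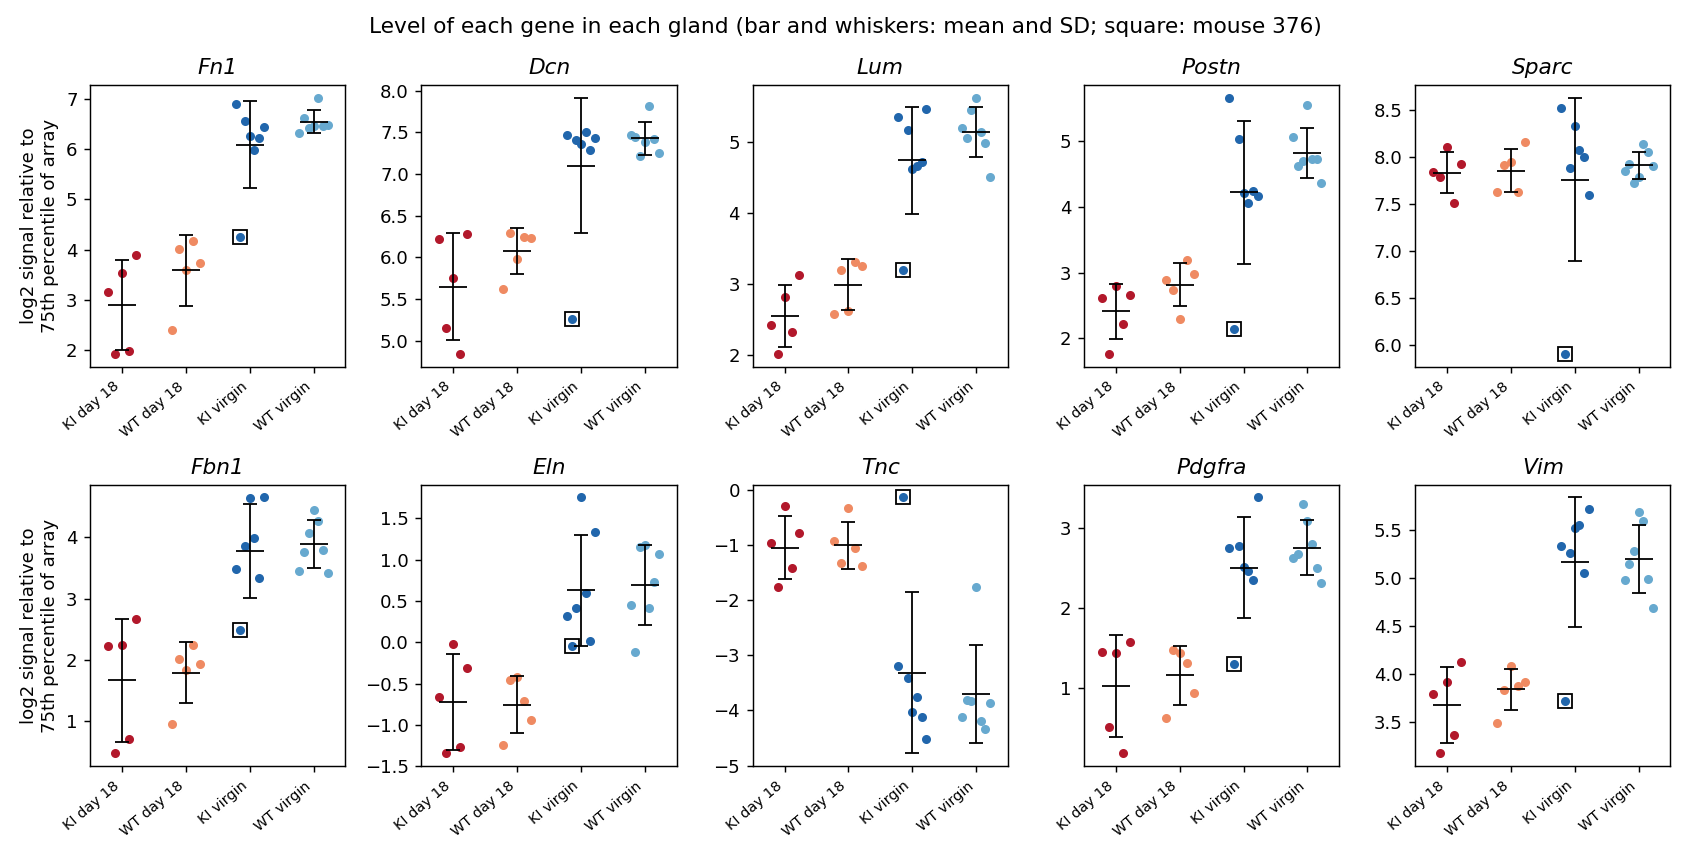
Levels of the 10 genes (log2 processed signal minus the array's 75th percentile, vertical axis, its own range in each panel) in each mouse, with group mean and SD; groups run knock-in day 18, wild-type day 18, knock-in virgin, wild-type virgin, and the square is mouse 376. In 8 panels each genotype's day-18 glands lie below its virgin glands apart from mouse 376, the Tnc panel runs the other way, and the Sparc groups share one range.

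Fn1, the adhesive glycoprotein of the interstitial matrix, had the largest difference of the 10. In knock-in glands at day 18 it stood at 1.92, 1.98, 3.15, 3.53 and 3.89. Wild-type glands at day 18 had 2.39, 3.60, 3.73, 4.00 and 4.18. Virgin knock-in glands had 4.24 at the lowest, 6.27 at the median and 6.91 at the highest, and virgin wild-type glands had 6.33, 6.48 and 7.03. Every day-18 gland was thus below every virgin gland of its genotype, and the lowest virgin gland, mouse 376, stood well below the next, at 6.00. Fn1 was 9.21-fold lower at day 18 in knock-in mice (log2 difference -3.20, SE 0.40, adjusted p = 9.83e-07) and 7.82-fold lower in wild-type mice (-2.97, SE 0.40, adjusted p = 3.05e-06). Counted from the largest fall among all 22383 genes, it was number 138 in knock-in and number 237 in wild-type mice. Without the arrays of mice 376 and 184 the knock-in difference was -3.67, or 12.7-fold.

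All 4 Fn1 probes were called lower in both genotypes, by -3.20 to -3.78 in knock-in and -2.97 to -3.83 in wild-type mice. They lie on mouse chromosome 1, minus strand, between 71632116 and 71695800 on mm9, the build the array files use. The brightest, A_55_P2130178, occupies 71632116 to 71632175. The dimmest of the 4, A_52_P237357, was well above background on 3 of 5 knock-in glands at day 18 and on all arrays of the other groups. A pair of probes cross an intron, since each has 60 bases but spans more of the genome, and so were designed on spliced RNA. These are the Fn1 junction probes, printed because their falls were of the same order as those of the other probes, -3.47 and -3.32 in knock-in and -3.61 and -3.80 in wild-type mice:
Fn1 A_51_P100856, chr1:71637422-71639659, minus strand, mm9: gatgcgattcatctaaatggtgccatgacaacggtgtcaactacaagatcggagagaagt
Fn1 A_55_P2743309, chr1:71694694-71695800, minus strand, mm9: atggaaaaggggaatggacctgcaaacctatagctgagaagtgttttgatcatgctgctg

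Lum and Dcn encode small leucine-rich proteoglycans that bind collagen fibrils, and they lie beside each other in the mouse genome, with Kera and Epyc next to them. Lum levels in knock-in glands at day 18 were 2.02, 2.33, 2.42, 2.82 and 3.13. The wild-type glands at that day had 2.58, 2.62, 3.19, 3.26 and 3.32. Virgin knock-in levels were 3.20 at the lowest, 4.72 at the median and 5.45 at the highest, and virgin wild-type levels were 4.51, 5.14 and 5.62. The stages did not overlap in either genotype, although virgin mouse 376 came close to the highest pregnant knock-in gland. Lum was 4.57-fold lower at day 18 in knock-in (log2 difference -2.19, SE 0.30, adjusted p = 3.58e-06) and 4.41-fold lower in wild-type mice (-2.14, SE 0.30, adjusted p = 5.43e-06).

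Dcn changed less. Its levels ran over 4.84 to 6.28 in knock-in and 5.63 to 6.30 in wild-type glands at day 18, against 5.26 to 7.50 in knock-in and 7.21 to 7.82 in wild-type virgin glands. Among knock-in mice, virgin mouse 376 lay inside the day-18 range, and the next virgin, at 7.29, lay above it. The fall was 2.74-fold in knock-in (adjusted p = 0.000687) and 2.56-fold in wild-type mice (adjusted p = 0.00137). The Dcn probe lies at chr10:96980233-96980292 and the Lum probe at chr10:97035210-97035269, both plus strand, mm9.

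Postn, a matricellular ligand of integrins deposited by fibroblasts, had levels of 1.77 to 2.80 in knock-in and 2.30 to 3.19 in wild-type glands at day 18, against 2.15 to 5.66 in knock-in and 4.36 to 5.55 in wild-type virgin glands. Mouse 376 was the lone virgin inside the knock-in day-18 range. The log2 difference was -1.81 in knock-in (SE 0.38, adjusted p = 0.000481) and -2.00 in wild-type mice (SE 0.38, adjusted p = 0.000184). All 4 Postn probes, on chromosome 3, plus strand, between 54188575 and 54194542 on mm9, were called lower in both genotypes. Their differences were -1.76 to -1.93 in knock-in and -2.00 to -2.48 in wild-type mice.

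The elastic fibre pair fell together. Fbn1, the backbone of microfibrils, had levels of 0.47, 0.71, 2.23, 2.24 and 2.67 in knock-in glands at day 18. In wild-type glands at day 18 it had 0.95, 1.83, 1.92, 2.01 and 2.24. Levels in virgin glands were 2.48, 3.86 and 4.65 (lowest, median and highest) in knock-in and 3.42, 3.79 and 4.44 in wild-type mice. Mice 210 and 239 stood well below the other 3 pregnant knock-in glands, and mouse 376 overlapped the highest of these. Fbn1 was 4.32-fold lower at day 18 in knock-in (log2 difference -2.11, SE 0.39, adjusted p = 0.000115) and 4.26-fold lower in wild-type mice (-2.09, SE 0.39, adjusted p = 0.000134). Its 3 probes, on chromosome 2, minus strand, gave -2.11 to -2.86 in knock-in and -2.09 to -2.89 in wild-type mice.

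Eln, the elastic core that microfibrils scaffold, had levels of -1.35 to -0.02 in knock-in and -1.24 to -0.41 in wild-type glands at day 18, against -0.04 to 1.75 in knock-in and -0.12 to 1.18 in wild-type virgin glands. The lowest virgin gland of each genotype came close to the day-18 range, and mouse 376 just entered it. The differences were -1.35 in knock-in (2.55-fold lower, adjusted p = 0.00118) and -1.45 in wild-type mice (2.73-fold lower, adjusted p = 0.000621). Both Eln probes, on chromosome 5, minus strand, were called lower in both genotypes.

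Pdgfra is the receptor tyrosine kinase by which fibroblasts and their precursors sense PDGF, and it is widely used to mark them. In knock-in glands at day 18 its levels were 0.18, 0.51, 1.43, 1.45 and 1.57. In wild-type glands at day 18 they were 0.62, 0.94, 1.32, 1.43 and 1.48. Virgin knock-in glands had 1.29, 2.52 and 3.38 as lowest, median and highest, and virgin wild-type glands had 2.31, 2.67 and 3.30. Except for mouse 376, every virgin gland lay above every day-18 gland. Pdgfra was 2.79-fold lower at day 18 in knock-in (adjusted p = 0.000289) and 3.03-fold lower in wild-type mice (adjusted p = 0.000132). Of its 3 probes, on chromosome 5, plus strand, A_55_P2734892 was not called in knock-in mice (-1.32, adjusted p = 0.0702 over all probes). That probe was well above background on 1 of 5 arrays in each day-18 group, on 6 of 7 in knock-in virgins and on 7 of 7 in wild-type virgins, so its differences are not well measured.

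Vim, the intermediate filament protein of mesenchymal cells, had levels of 3.17 to 4.12 in knock-in and 3.49 to 4.08 in wild-type glands at day 18, against 3.72 to 5.72 in knock-in and 4.68 to 5.69 in wild-type virgin glands. Mouse 376 was again the lone virgin among the day-18 levels. The log2 difference was -1.50 in knock-in (SE 0.27, adjusted p = 9.78e-05) and -1.36 in wild-type mice (SE 0.27, adjusted p = 0.000284). The Vim probe lies at chr2:13504232-13504291, plus strand, mm9.

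Tnc, a large matricellular glycoprotein that loosens cell adhesion, was the one gene of the 10 that was higher at day 18. Its levels in knock-in glands at day 18 were -1.77, -1.41, -0.97, -0.79 and -0.30. The wild-type glands at day 18 had -1.39, -1.33, -1.06, -0.93 and -0.32. Virgin glands were at -4.52, -3.76 and -0.14 (lowest, median and highest) in knock-in and -4.34, -3.87 and -1.76 in wild-type mice. A single virgin in each genotype stood far above its group, mouse 376 above every pregnant gland and wild-type mouse 317 below every pregnant wild-type gland, while the next highest virgins were at -3.20 and -3.81. Tnc was 4.80-fold higher at day 18 in knock-in (log2 difference 2.26, SE 0.55, adjusted p = 0.00178) and 6.48-fold higher in wild-type mice (2.70, SE 0.55, adjusted p = 0.000366). Without mice 376 and 184 the knock-in difference was 2.61. With normexp background correction, which changes dim probes most, the differences were 1.45 in knock-in and 1.78 in wild-type mice, or 2.73-fold and 3.44-fold.

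The Tnc probes are printed because both showed the one rise of the set, at separate places in the gene. The first, which stood for the gene, is placed by the files on a span of 46 bases for its 60, and the second crosses an intron:
Tnc A_51_P291438, chr4:63620819-63620864, minus strand, mm9: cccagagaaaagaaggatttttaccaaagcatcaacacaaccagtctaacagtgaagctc
Tnc A_52_P355169, chr4:63674248-63675011, minus strand, mm9: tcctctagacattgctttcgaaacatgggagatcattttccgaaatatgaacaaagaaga

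The junction probe gave 3.11 in knock-in and 2.70 in wild-type mice (adjusted p = 5.50e-05 and 0.000262 over all probes). In virgin knock-in mice it was well above background on 6 of 7 arrays, and in the other groups on every array.

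Sparc, a collagen-binding glycoprotein of remodelling matrix, had about the same level in all groups by the probe that stood for it. Its brightest probe had levels of 7.51 to 8.11 in knock-in and 7.63 to 8.16 in wild-type glands at day 18, against 5.91 to 8.53 in knock-in and 7.72 to 8.14 in wild-type virgin glands. The groups overlapped throughout, with mouse 376 far below the others and the next knock-in virgin at 7.60. The log2 difference was 0.07 in knock-in (95% interval -0.53 to 0.67, adjusted p = 0.865) and -0.06 in wild-type mice (95% interval -0.66 to 0.54, adjusted p = 0.903). For this probe, the intervals leave out a fall of the size seen in the 8 genes above on this scale. Without mice 376 and 184 the knock-in difference was -0.30 (adjusted p = 0.102).

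The size and sign of the Sparc difference varied with the probe and the scaling. The junction probe had a log2 difference of -0.78 in knock-in (SE 0.32, unadjusted p = 0.0208, adjusted p = 0.0523 over all probes) and -0.76 in wild-type mice (SE 0.32, unadjusted p = 0.0253, adjusted p = 0.0621). The third probe, A_55_P2713955, gave -0.23 in knock-in and -0.39 in wild-type mice and was not called. The brightest probe's signals of 61964 to 195930 were among the highest on the arrays, ranking between 9 and 179 of all probes, and none was saturated. Quantile normalization gave it -0.67 in both genotypes (adjusted p = 0.000171 in knock-in and 0.000181 in wild-type mice), and scaling on the spike-in controls gave -0.76 and -0.97 (adjusted p = 0.0405 and 0.00919). Spike-in scaling also moved the median of all genes to -0.78 in knock-in and -0.91 in wild-type mice, so these 2 values are near those of a typical gene. Median scaling moved Sparc the other way, to 0.27 in knock-in and 0.12 in wild-type mice, and Sparc was not called. The median of all genes was then 0.25 and 0.19. The 3 Sparc probes are shown because their differences were not alike:
Sparc A_55_P2046812, chr11:55208939-55208998, minus strand, mm9: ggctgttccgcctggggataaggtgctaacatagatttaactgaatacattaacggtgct
Sparc A_52_P101852, chr11:55209449-55212106, minus strand, mm9: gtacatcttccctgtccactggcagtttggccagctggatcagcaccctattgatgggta
Sparc A_55_P2713955, chr11:55222956-55223015, minus strand, mm9: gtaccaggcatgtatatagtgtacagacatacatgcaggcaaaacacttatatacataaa

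**Figure D2:**
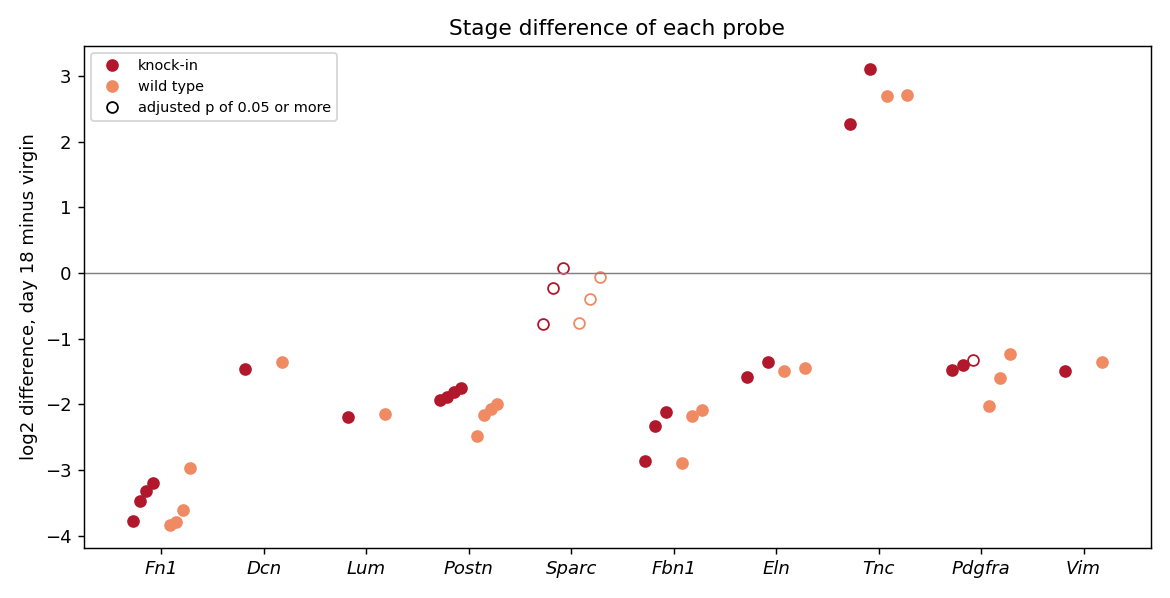
Day 18 minus virgin log2 difference (vertical axis) of each of the 24 probes in knock-in and wild-type mice; open symbols had an adjusted p of 0.05 or more. Probes of 8 genes lie below 0, both Tnc probes lie above it, and the Sparc probes are spread from -0.78 to 0.07.

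By probe, 18 of 24 were called lower and 2 higher in knock-in mice, and 19 lower and 2 higher in wild-type mice, with 20 called in both. Of all probes kept, 39.5% were called in knock-in and 38.8% in wild-type mice, in either direction. The probes not called in wild-type mice were the 3 of Sparc, and in knock-in mice 1 of Pdgfra joined them. That Pdgfra probe, A_55_P2734892, is among the 19 called lower in wild-type mice. It passed the filter through the virgin groups alone, so its call carries no weight.

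On each of the 3 slides, all of which held the 4 groups, the same 8 genes were lower and Tnc was higher at day 18, in both genotypes. Fn1 differed by -2.97, -3.41 and -3.19 on slides 1 to 3 in knock-in and by -2.88, -3.25 and -2.71 in wild-type mice. Tnc differed by 1.15, 2.86 and 3.35 in knock-in and by 3.64, 1.66 and 2.91 in wild-type mice. The lowest of these, 1.15, came from slide 1, which held mouse 376. Some slides held 1 day-18 mouse of a genotype, so these are values with no test.

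Scaling mattered for how many genes passed. With each array scaled to its median instead of its 75th percentile, 4 of the 10 were called in knock-in (3 lower and Tnc higher) and 5 in wild-type mice (4 lower and Tnc higher), with the directions of all but Sparc kept. Calls over all 22383 genes fell as well, from 4542 lower and 5117 higher to 2359 and 2711 in knock-in mice. In wild-type mice they fell from 4671 and 4686 to 2482 and 2834. Leaving out mouse 376 under that scaling brought both member counts back to 9. Over all genes it then gave 5715 lower and 3786 higher in knock-in, and 4276 and 6466 in wild-type mice.

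**Figure D3:**
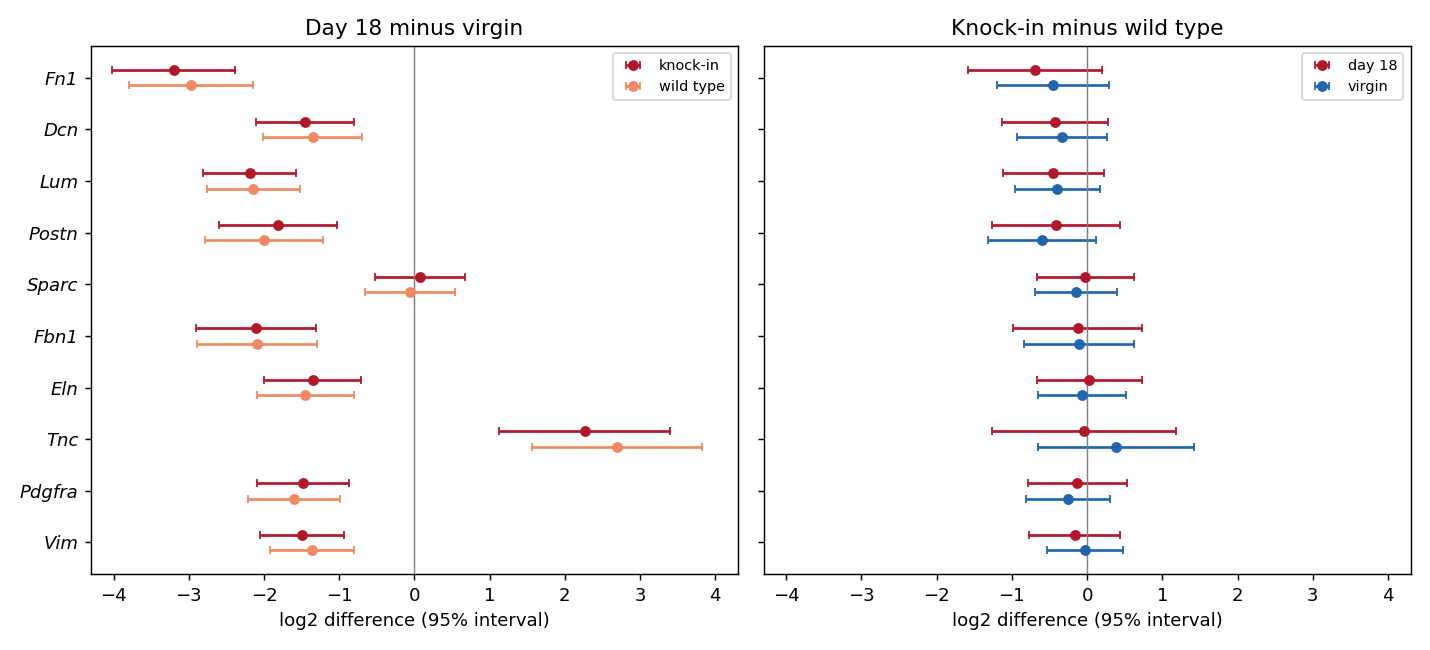
Log2 differences with 95% intervals for the 10 genes: day 18 minus virgin in knock-in and wild-type mice on the left, and knock-in minus wild type at day 18 and in virgins on the right. The left panel runs from -3.20 for Fn1 to 2.70 for Tnc, while every interval on the right crosses 0.

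No gene of the 10 was called between the genotypes. At day 18, knock-in minus wild-type log2 differences ran from -0.69 for Fn1 (95% interval -1.58 to 0.20) to 0.03 for Eln, with an adjusted p of 1.00 throughout. In virgins they ran from -0.60 for Postn (95% interval -1.32 to 0.12) to 0.39 for Tnc (-0.65 to 1.42), with a smallest adjusted p of 0.702. The counts called were 0 of 10 in each, beside 0% of all genes in limma, of which 441 at day 18 and 802 in virgins had an unadjusted p under 0.05, and 0 of the 10 did in either. The intervals for Fn1 still allow a knock-in level lower by 1.58 at day 18.

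By the probe that stood for each gene, the point estimates leaned to lower knock-in levels. They were below 0 for 9 of 10 genes at both stages, where 50.1% of all genes at day 18 and 55.3% in virgins were below 0. Over the members this is not a test, since the genes vary together across mice. Other probes of the same genes went the other way at day 18. The highest value was 0.05 for Fn1, 0.21 for Postn, 0.98 for Pdgfra, 0.40 for Sparc and 0.36 for Tnc. In virgins it was 0.27 for Pdgfra, 0.24 for Sparc and 0.17 for Eln. Without mice 376 and 184, 10 of 10 were below 0 at day 18 and 6 of 10 in virgins, where the values then spanned -0.25 to 0.21. Fn1 at day 18 was then -0.85 (adjusted p = 0.484). Of the 3 slides, all gave a value below 0 for 3 genes at day 18 and for 2 genes in virgins.

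Exact permutation tests of single genes, two-sided over all 252 splits of the day-18 mice, gave a lowest p of 0.119, for Lum and Postn. Over all 3432 splits of the virgins the lowest exact p was 0.179, for Fn1. These are unadjusted for the 10 genes at each stage. The genotype effect averaged over stages was largest for Fn1, at -0.57 (unadjusted p = 0.0536, smallest adjusted p of the 10 genes 0.651). Over the 4 Fn1 probes that average ran from -0.60 to -0.19. The difference between the genotype effects at day 18 and in virgins ran from -0.43 to 0.19, with a smallest unadjusted p of 0.583 and an adjusted p of 1.00. For these comparisons 1160 and 228 of all genes had an unadjusted p under 0.05, and 0 passed the adjustment.

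The same mice were low or high for many of the genes. Of the 5 knock-in mice at day 18, mice 210 and 239 were the lowest pair for all 10 genes, mouse 210 being the lowest for 7, and mice 183 and 184 shared the highest place. Among wild-type mice at day 18, mouse 234 was the lowest for 7 genes. Among knock-in virgins, mouse 376 was lowest for 9 genes and highest for Tnc. In wild-type virgins mouse 320 was lowest for 5 genes and mouse 317 highest for 6.

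**Figure D4:**
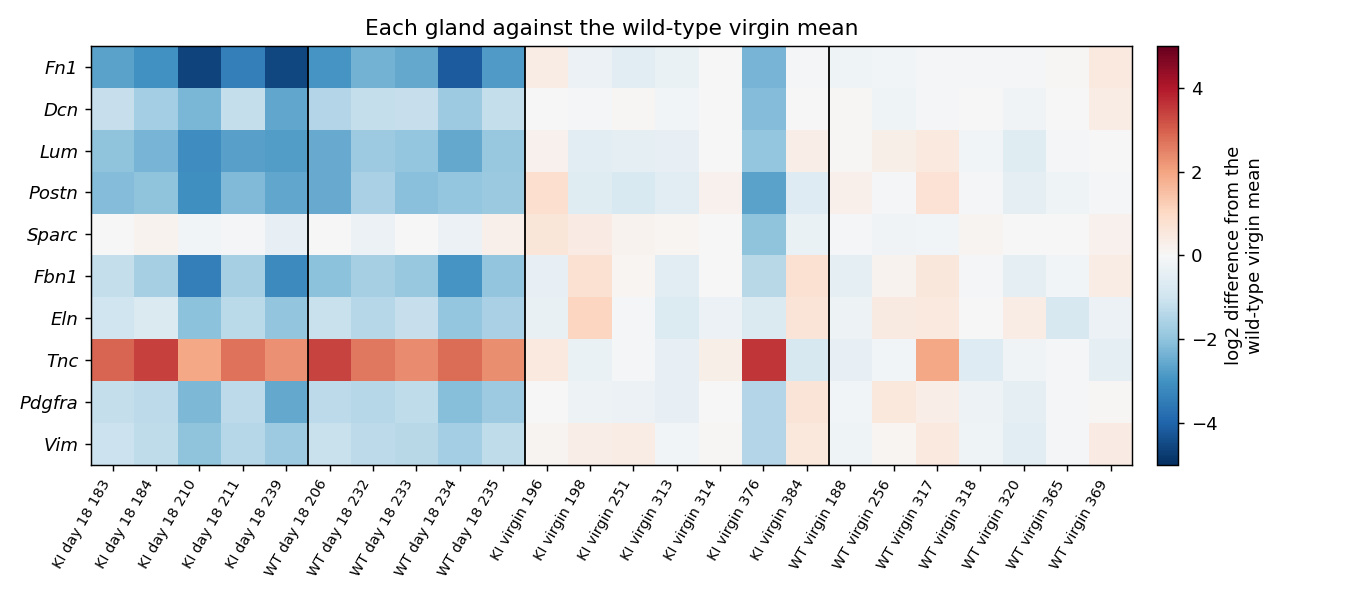
Level of each of the 10 genes in each of the 24 glands minus the mean of the wild-type virgins (colour, log2 scale limited to 5 either way); columns are mice grouped as knock-in day 18, wild-type day 18, knock-in virgin and wild-type virgin. The 8 falling genes are blue in the pregnant glands and Tnc is red. Virgin mouse 376 is blue for Fn1, Dcn, Lum, Postn and also Sparc, paler blue for Fbn1, Pdgfra, Vim and Eln, and red for Tnc.

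Across the 24 arrays the levels of the 8 falling genes correlated at r = 0.73 (Eln with Postn) to 0.97 (Fn1 with Lum). With Tnc the 8 genes correlated at r = -0.67 to -0.84, and with Sparc at 0.17 to 0.49. These values describe arrays that share the 2 stages and the scaling, and carry no p. The genes most like each member in level across the arrays included elastic fibre and matrix genes, and also genes of other kinds. For Fbn1 the closest was Emilin2 (r = 0.993), for Fn1 Efemp1 (0.984), for Dcn Ift57 (0.981), for Lum Ptpn13 (0.987) and for Postn Col18a1 (0.957). Eln was closest to Pcolce (0.941), Pdgfra to Nid1 (0.978), Vim to Serpinf1 (0.984), and Tnc to Cep97 (0.951). Next came Galnt16 and Igfbp6 for Fbn1, Twist2 and Prss12 for Fn1, and Lama2 and Gsn for Dcn. For Lum they were Snhg18 and Evc2, for Postn Rcn1 and Sesn1, and for Eln Plcl2 and Igfbp6. Pdgfra had Arhgap31 and C1ra, Vim had Nid1 and Hexa, and Tnc had Gm3985 and Ins2. For Sparc the closest named genes were Tlr9 (0.921) and Copz2 (0.907), and without 3 arrays, those of mice 376, 184 and 198, these fell to 0.682 and 0.621, so that likeness rests on them.

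Genes that work with the 10 were counted on lists, of which 8 cover matrix and fibroblast genes. For all genes tested, the shares called lower were 20.3% in knock-in and 20.9% in wild-type mice. The shares called higher were 22.9% and 20.9%. Fibroblast identity genes were nearly all lower at day 18: 21 of 22 measured were called lower and 0 higher in knock-in mice, and 21 lower and 0 higher in wild-type mice, all 21 in both. Fgf10, a growth factor for epithelial buds made by stromal cells, was 7.12-fold lower at day 18 in wild-type mice (log2 difference -2.88 in knock-in and -2.83 in wild-type mice). Pi16, a marker of adventitial fibroblasts, had -3.30 in knock-in and -2.61 in wild-type mice. The list's median log2 difference was -2.00 in knock-in and -2.08 in wild-type mice. With median scaling 15 in knock-in and 16 in wild-type mice were called lower.

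Of 20 microfibril and elastic fibre genes, 14 were called lower in knock-in and 15 in wild-type mice, and 0 were higher in either. Emilin2, an elastic fibre glycoprotein, differed by -2.61 in knock-in and -2.65 in wild-type mice, and Loxl1, an enzyme that cross-links elastin, by -2.37 and -2.55. Among 9 measured small leucine-rich proteoglycans, 6 were called lower and 1 higher in each genotype. Ogn (osteoglycin) differed by -1.70 in knock-in and -2.14 in wild-type mice. Fmod (fibromodulin), which also binds collagen, was the exception, higher by 2.27 in knock-in and 2.55 in wild-type mice, and it was called higher under median and spike-in scaling too. Kera, the genomic neighbour of Lum, is counted among the 6, but it was well above background on 0 of 5 knock-in and 2 of 5 wild-type arrays at day 18 and passed the filter through the virgin groups alone, so its call carries no weight.

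Of 23 measured matricellular and adhesive glycoproteins, 16 were called lower in each genotype, and 2 were higher in knock-in and 1 in wild-type mice. Thbs3, a thrombospondin, differed by -2.36 in knock-in and -2.72 in wild-type mice, and Dpt (dermatopontin), which binds decorin, by -3.09 and -2.68. Ccn2, a growth factor-binding matricellular protein, was higher by 1.30 in knock-in and 1.41 in wild-type mice, which with spike-in scaling became 0.47 and 0.49 and did not pass. Of 8 fibrillar collagens 6 were called lower and 0 higher in each genotype, Col5a2 by -1.93 in knock-in and -2.21 in wild-type mice.

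With median scaling fewer genes of these lists were called lower: 9 of the microfibril list in each genotype, 3 proteoglycans in knock-in and 4 in wild-type mice, 8 and 10 glycoproteins, and 2 and 3 collagens. That scaling called 2359 of all 22383 genes lower in knock-in and 2482 in wild-type mice.

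Receptors were called in both directions. Of 18 receptors for fibronectin and matrix, 8 were called lower and 4 higher in each genotype, 7 and 3 of them in both. Beside these stand 20.3% of all genes called lower and 22.9% higher in knock-in mice. In wild-type mice the shares were 20.9% and 20.9%, so the 4 called higher are near the general rate. Ddr2, a collagen receptor of mesenchymal cells, differed by -2.39 in knock-in and -2.51 in wild-type mice, while Ddr1, its epithelial relative, was higher by 2.54 and 2.14. The collagen-binding integrin subunit Itga11 differed by -2.99 in knock-in and -2.34 in wild-type mice, and Itga8, whose integrin binds fibronectin, was higher by 3.99 and 3.33. Ddr1 and Itga8 were called higher under median and spike-in scaling too, while the receptors called lower numbered 2 in knock-in and 4 in wild-type mice with median scaling and 11 and 14 with spike-in scaling. Of all 22383 genes, median scaling called 2359 lower in knock-in and 2482 in wild-type mice, and spike-in scaling 11652 and 13672. Of the 6 other PDGF ligands and receptors, 2 were lower and 2 higher in knock-in mice, and 2 lower and 3 higher in wild-type mice. Pdgfrb fell, with -1.23 in knock-in and -1.47 in wild-type mice, while the ligand Pdgfc was higher by 1.43 and 1.35, and the list's median was 0.42 and 0.57. With spike-in scaling that median was -0.41 in knock-in and -0.35 in wild-type mice and 0 of the 6 were called higher. With median scaling 0 were called lower and 1 higher in each genotype, so the calls of Pdgfrb in both genotypes and of Pdgfc in wild-type mice (adjusted p = 0.0561) ended. Of 6 intermediate filament genes of mesenchyme, 1 was called lower and 1 higher in knock-in, and 2 lower and 1 higher in wild-type mice, with medians of 0.06 and -0.13. Nes (nestin) had -0.85 in knock-in and -1.04 in wild-type mice and was called in both. Synm (synemin) had 1.14 in knock-in, where it was not called (adjusted p = 0.126), and 1.55 in wild-type mice, where it was. With median scaling 0 of the 6 were called in either genotype.

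**Figure D5:**
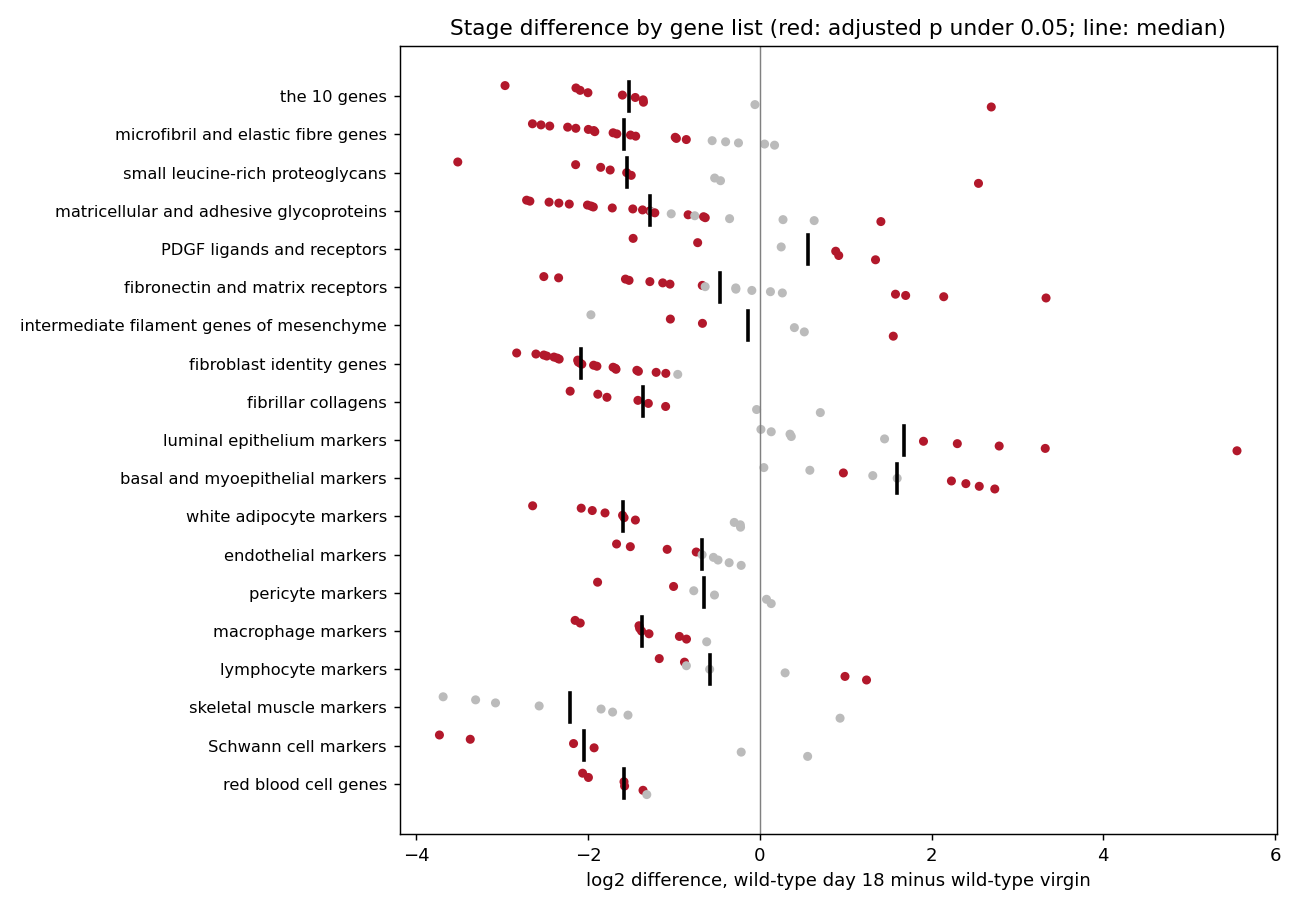
Day 18 minus virgin log2 difference in wild-type mice (horizontal axis) for each gene of the matrix and cell marker lists; red points were called, grey points were not, and the line is the list's median. The fibroblast identity list has 21 of 22 genes called lower with a median of -2.08, against a median of 1.68 for the luminal markers.

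Markers of other cell types were called between the stages as well, and their part in these results was not tested. Beside the counts below stand 20.3% of all genes called lower and 22.9% higher in knock-in mice. In wild-type mice these shares were 20.9% and 20.9%. White adipocyte markers were called lower for 7 of 10 in each genotype, with mean levels of 3.52 to 5.05 in knock-in and 4.73 to 5.22 in wild-type glands at day 18, against 4.28 to 6.65 in knock-in and 6.27 to 6.47 in wild-type virgin glands. Macrophage markers were lower for 8 of 9 in each genotype, with mean levels of 1.47 to 2.74 in knock-in and 1.57 to 2.48 in wild-type glands at day 18, against 2.35 to 4.44 in knock-in and 2.73 to 4.28 in wild-type virgin glands. Endothelial markers were lower for 6 of 9 in knock-in and 4 of 9 in wild-type mice, and pericyte markers for 4 of 6 and 2 of 6. Basal markers were higher for 8 of 9 in knock-in and 5 of 9 in wild-type mice, and luminal markers for 7 of 10 and 5 of 10. Schwann cell markers were lower for 4 of 6 in each genotype, and red blood cell genes for 4 of 6 in knock-in and 5 of 6 in wild-type mice. Of these lists, Cdh19 was well above background on 1 of 5 knock-in and 3 of 5 wild-type arrays at day 18. Slc4a1 was so on 1 of 5 in each. Both passed the filter through virgin groups alone, so a call of either carries no weight. With median scaling the markers called lower were fewer, with 5 adipocyte markers in knock-in and 3 in wild-type mice, 2 macrophage, 1 endothelial and 1 pericyte marker in each, 2 and 4 Schwann cell markers and 0 and 2 red blood cell genes. Those called higher were then 6 basal markers in knock-in and 4 in wild-type mice, and 6 and 5 luminal markers. Of all 22383 genes, median scaling called 2359 lower and 2711 higher in knock-in, and 2482 and 2834 in wild-type mice. The endothelial and pericyte counts with median scaling are thus near the general rate. Among all listed markers, the B cell gene Cd79a was the one well above background on 0 arrays of both day-18 groups, and in virgins it was so on 3 of 7 knock-in and 1 of 7 wild-type arrays. Mouse 376 had the lowest adipocyte, endothelial, pericyte and macrophage mean levels of the knock-in virgins, as it had for 9 of the 10 genes. Mouse 317, high for Tnc, had the lowest luminal and basal mean levels of the wild-type virgins, and its macrophage mean level was the highest.

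Skeletal muscle markers, of which 0 of 8 were called in either genotype, ranged widely: -4.55 to 6.64 in knock-in and -4.86 to 0.89 in wild-type glands at day 18, against -1.92 to 8.31 in knock-in and -4.46 to 7.40 in wild-type virgin glands. The highest were mouse 211 in knock-in day-18, mouse 198 in knock-in virgin and mouse 320 in wild-type virgin glands. Between genotypes, 0 of 208 list genes were called at day 18 and 0 in virgins in limma, with 8 and 19 at an unadjusted p under 0.05. The lists were made with results of these data known, so their counts are no independent evidence.

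Promoters were read from RefSeq windows on GRCm38.p6, a later build than that of the arrays, each reaching from upstream of a transcript start to just past it. There were 8 windows for 6 of the 10 genes (Vim, Fbn1, Postn, Tnc, Pdgfra and Sparc). A search of both strands for TATAAA, the core of the TATA box, found it in 4 of the 8 windows, those of Vim and Tnc and 1 of Postn, beside 13.6% of all 32851 windows. The CCAAT box was in 2 windows (Vim and Postn), beside 37.4%, and the GC box core GGGCGG in 3 (Fbn1 and both of Tnc), beside 35.7%. TGANTCA, the AP-1 motif, was in 0 of 8 beside 7.81%. The cAMP response element TGACGTCA was in 0 beside 1.79%, and GGAATG, a motif of TEAD factors, was in 0 beside 14.7%. Both Tnc windows overlap, so they are not separate counts. The windows with TATAAA are printed below for a pair of genes that fell and for Tnc, with the motif letters found in capitals; CCAAT on the minus strand reads ATTGG:
Vim, chr2:13574061-13574360, plus strand, GRCm38.p6: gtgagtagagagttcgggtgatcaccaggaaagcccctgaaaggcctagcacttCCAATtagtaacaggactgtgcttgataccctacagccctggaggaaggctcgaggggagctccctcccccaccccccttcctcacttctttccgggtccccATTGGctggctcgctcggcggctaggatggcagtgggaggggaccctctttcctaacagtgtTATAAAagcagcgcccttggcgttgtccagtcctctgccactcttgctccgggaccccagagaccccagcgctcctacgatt
Postn, chr3:54360857-54361156, plus strand, GRCm38.p6: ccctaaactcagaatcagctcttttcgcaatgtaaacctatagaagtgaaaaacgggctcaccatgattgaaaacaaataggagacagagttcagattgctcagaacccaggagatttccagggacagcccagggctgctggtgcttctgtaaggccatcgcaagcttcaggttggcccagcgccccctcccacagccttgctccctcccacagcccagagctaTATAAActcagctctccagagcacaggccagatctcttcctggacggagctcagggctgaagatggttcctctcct
Tnc, chr4:64046887-64047186, minus strand, GRCm38.p6: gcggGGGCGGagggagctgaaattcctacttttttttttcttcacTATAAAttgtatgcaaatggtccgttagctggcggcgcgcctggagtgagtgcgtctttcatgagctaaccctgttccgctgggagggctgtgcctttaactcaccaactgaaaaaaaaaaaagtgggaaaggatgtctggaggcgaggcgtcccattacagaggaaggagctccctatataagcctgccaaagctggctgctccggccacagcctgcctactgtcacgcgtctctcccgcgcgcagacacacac

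TATAAA began 32 bases before the start in Vim and 26 bases before it in Postn. In this Tnc window it began 205 bases before the start. The search took exact letters only. It therefore did not count the similar run tatataag, which lies nearer the start in this Tnc window. A match describes letters in these windows, and no measurement of binding was made.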

How the data were processed

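RNA of 24 whole mammary glands, 1 per mouse, was measured on 1-colour arrays on 3 slides. Per the file headers, the authors extracted spots with Agilent Feature Extraction 12.0.3.2, and the deposited scanner files give an intensity, the processed signal, with background subtracted and no scaling between arrays. The deposited value table holds log10 of that processed signal for 62969 features (largest difference 0.0050). Neither the authors' scaling nor their tests are given in the sources used here.

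From the deposited intensities, log2 values were computed. Outlier spots were set to missing, each array's 75th percentile over non-control spots was subtracted, and a probe stayed in if 80% or more of any group's arrays had it well above background. For genes with several probes the brightest stood for the gene. Of the probes, 35405 were named through their accession in RefSeq, 9124 by symbol and 25 by synonym, and the file's own name was used for 12051.

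Group means were fitted to all 24 arrays with limma 3.58.1 in R 4.3.3, with Benjamini-Hochberg adjustment over all genes (or all probes) of a comparison; errors are standard errors, and n is 5 per day-18 group and 7 per virgin group, which limits the precision. Alternatives were other scalings, background correction, filters, gene summaries, slide as a block, array weights and left-out arrays. The fit was tested on simulated data.

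Named were all 10 members by every probe, of each other list the largest called rises and falls in wild-type mice (not all are printed), and the 3 genes most correlated with each member. The members and lists were chosen with earlier results of these data known.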

Additional observations from a re-analysis of the deposited data

Results flagged for a closer look

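A value was picked out where 1 mouse lay far from the rest of its group, by Dixon's gap ratio at the 95% level. Of 40 sets of a gene in a group, 9 were picked out, and chance alone picks out about 1 in 20. The sets share mice and the genes vary together, so this count is not a test of an excess.

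Knock-in virgin mouse 376 accounted for 6 of the 9. It stood at 4.24 for Fn1, against 6.00 for the nearest other mouse, at 5.26 for Dcn (7.29), at 3.20 for Lum (4.61), at 5.91 for Sparc (7.60) and at 3.72 for Vim (5.05). For Tnc it was high, at -0.14, against -3.20. Its array was the one with 57003 spots well above background and a negative-control median of 339.

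In wild-type virgins, mouse 369 was high for Fn1, at 7.03 (nearest 6.62), and for Dcn, at 7.82 (7.47). Mouse 317 was high for Tnc, at -1.76 (nearest -3.81), and without it the wild-type day-18 minus virgin difference of Tnc was 3.02.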

How the results depend on the processing

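Each member value was recomputed under 38 settings, or 37 for the difference and the average of the genotype effects. With median scaling, 4 members were called between stages in knock-in and 5 in wild-type mice, in place of 9 and 9. The calls that ended were Dcn (-1.25 in knock-in and -1.18 in wild-type mice), Eln (-1.15 and -1.27), Pdgfra (-1.28 and -1.42) and Vim (-1.29 and -1.18), and Postn in knock-in mice (-1.61). With that scaling and without mouse 376, chosen after seeing the data, the counts were 9 and 9. Sparc in knock-in mice turned to -0.67 with quantile normalization and -0.76 with spike-in scaling, where the median of all genes was -0.78.

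Over all genes, stage calls were 4542 lower and 5117 higher in knock-in, 4671 and 4686 in wild-type mice. Median scaling gave 2359 and 2711 in knock-in, 2482 and 2834 in wild-type mice. Without mouse 376 as well, it gave 5715 and 3786 in knock-in, 4276 and 6466 in wild-type mice. Spike-in scaling gave 11652 and 1373 in knock-in, 13672 and 1141 in wild-type mice, and moved the median of all genes to -0.78 and -0.91. Array weights called 6775 lower and 7296 higher in wild-type mice, and 13 lower and 8 higher between genotypes in virgins, none of them a member.

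Exact tests between genotypes called 0 member values. With median scaling they called 2, Lum at -0.82 (exact p = 0.0317) and Postn at -0.78 (exact p = 0.0159) at day 18. Mouse 376 is a virgin, so leaving it out could not change these day-18 tests. Median scaling also moved the knock-in minus wild-type median of all genes at day 18, from -0.00092 to -0.37. Before that change of scaling, Lum was at -0.45 and Postn at -0.41, so both moved along with the median of all genes. Leaving out 1 mouse at a time gave 0 to 2, the 2 being Fn1 (-0.59, exact p = 0.0245) and Postn (-0.84, exact p = 0.0221) in virgins without knock-in mouse 196; without wild-type day-18 mouse 206, Postn at -0.54 had an exact p of 0.0476. The causes were not tested. No paired analysis was possible because all mouse numbers in the labels differ. Dim probes of Tnc and Pdgfra limit the sizes given.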
